A study of Mus musculus with 18 samples.

Results

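Interleukin 10 (IL-10) was added together with LPS to bone-marrow-derived macrophages for 20 min, and the 3 arrays of these cells were compared with the 3 arrays of cells given LPS alone for 20 min. These 6 arrays are all those labelled 20 min among the 18 arrays of the series. They were taken by label, and no measured value decided which arrays entered. The comparison itself was chosen with earlier results of these data known. The macrophages came from IL-10-/- mice in every group and had been grown for 7 days in medium with CSF-1 from L-cell conditioned medium and 10% serum. LPS was used at 100 ng/ml in every group, IL-10 at 10 ng/ml, and no CSF-1 was present during treatment. Arrays were also made at 10 and 30 min, 3 per group. Replicate numbers mark complete independent experiments, done in sequence with mice matched for age and sex, and each LPS plus IL-10 array was paired with the LPS array of its own experiment (experiments 1, 2 and 3). The cells were described as over 95% mature macrophages. No array of the series was of cells with neither agent, so all differences are between LPS plus IL-10 and LPS.

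IL-10 is a cytokine that restrains activated macrophages. It binds a receptor made of the chains IL-10R1 and IL-10R2, encoded by Il10ra and Il10rb, whose associated kinases JAK1 and TYK2 phosphorylate the transcription factor STAT3. STAT3 then enters the nucleus and drives a set of genes that includes Socs3, an inhibitor of cytokine receptor signalling. LPS activates Toll-like receptor 4 and, through NF-kB and MAP kinases, the genes of inflammatory cytokines and their feedback inhibitors. The series title speaks of a repressor and a co-repressor under STAT3, and the study is known to concern Etv3, an ETS-family transcriptional repressor, and Sbno2, a helicase-family co-repressor.

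At 20 min 3 genes were called higher with IL-10, Socs3, Sbno2 and Etv3, and their promoters are shown because they carry the whole of the called response. Promoter sequences were taken from RefSeq on GRCm38.p6, as the 250 bases before each annotated transcription start, 5′ to 3′ on the strand of the gene. Capitals mark matches to TTCNNNGAA, the palindromic letters that STAT dimers are known to bind, which read the same on both strands. Socs3 has 1 annotated start, with its promoter on the minus strand at chr11:117969367-117969616. Sbno2 has 3, of which the first lies at chr10:80102703-80102952 and the second at chr10:80101188-80101437, both on the minus strand, and the third is not shown. The Etv3 promoter lies on the plus strand at chr3:87525328-87525577.
Socs3: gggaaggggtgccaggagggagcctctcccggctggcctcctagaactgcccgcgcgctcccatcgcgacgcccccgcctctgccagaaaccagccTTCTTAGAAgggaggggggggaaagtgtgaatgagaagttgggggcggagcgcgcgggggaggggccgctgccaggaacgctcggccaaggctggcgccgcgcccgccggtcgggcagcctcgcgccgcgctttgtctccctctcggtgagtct
Sbno2, first start: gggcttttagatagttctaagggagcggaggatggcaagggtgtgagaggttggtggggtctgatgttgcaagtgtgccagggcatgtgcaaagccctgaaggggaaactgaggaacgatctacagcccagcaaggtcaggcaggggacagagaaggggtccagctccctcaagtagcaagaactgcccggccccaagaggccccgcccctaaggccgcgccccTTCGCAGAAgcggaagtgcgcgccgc
Sbno2, second start: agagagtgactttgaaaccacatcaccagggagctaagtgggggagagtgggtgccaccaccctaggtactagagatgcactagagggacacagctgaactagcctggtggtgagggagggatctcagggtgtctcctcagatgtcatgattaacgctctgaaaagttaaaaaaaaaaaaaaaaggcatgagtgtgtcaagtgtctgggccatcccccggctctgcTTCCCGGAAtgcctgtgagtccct
Etv3: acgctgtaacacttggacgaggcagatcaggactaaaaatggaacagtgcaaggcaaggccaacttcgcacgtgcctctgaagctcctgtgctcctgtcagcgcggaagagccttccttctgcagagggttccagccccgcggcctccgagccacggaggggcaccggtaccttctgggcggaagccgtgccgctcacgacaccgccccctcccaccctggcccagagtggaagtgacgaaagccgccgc
The Socs3 promoter holds 1 match, TTCTTAGAA, at -154 from the start. The Sbno2 promoters hold 1 match each at the first and second starts, TTCGCAGAA at -26 and TTCCCGGAA at -24, and none at the third. The Etv3 window holds no match, which says only that these letters are not in it. The letters occur in 8.3% of the 32851 RefSeq promoter windows of 300 bases, and the stricter TTCCNGGAA, which overlaps them and which the second Sbno2 match fits, in 1.15%. They were also found in 7 of the 37 windows of the panel of named genes (18.9%), which include Socs3 and Sbno2. The others were windows of Cish (2 matches), Sbno1, Irf1 and Zfp36, genes that were not called at 20 min. These are letter matches and not binding sites measured here.

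Of 27062 probe sets tested, 5 were higher with IL-10 at 20 min at an adjusted p under 0.05 (limma with the experiment as a block, Benjamini-Hochberg), which is 0.0185%. None was lower, and the smallest adjusted p among probe sets with a negative difference was 0.281. Before adjustment 2113 probe sets in either direction had a p under 0.05 (7.81%). The 5 probe sets were 3 for Socs3, 1 for Sbno2 and 1 for Etv3. These same 5 were also the only ones, among the 11260 probe sets in the top 25% by mean signal (called bright here), to be higher by 1 log2 unit or more in each of the 3 experiments (0.0444%), and no bright probe set was lower by that much in all 3. Of the bright probe sets 16.8% were higher and 13.6% lower in all 3 pairs.

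**Figure D1:**
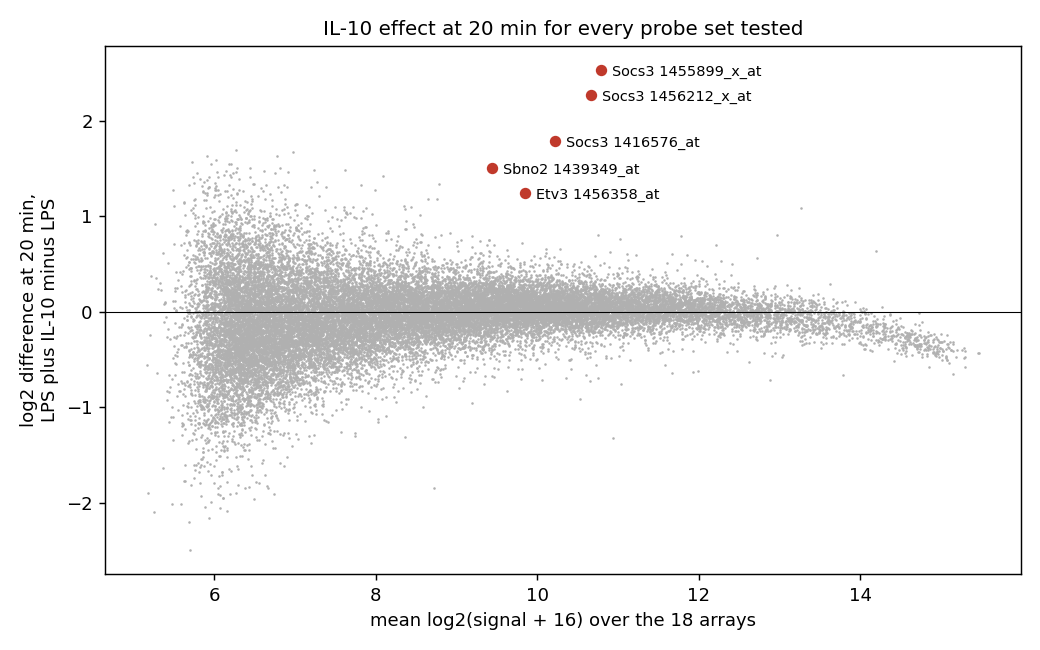
Log2 difference at 20 min, LPS plus IL-10 minus LPS, on the y axis against the mean log2(signal + 16) over the 18 arrays on the x axis, 1 point for each of 27062 probe sets tested. The 5 called probe sets, in red and labelled, lie between 1.24 and 2.53, above the other bright probe sets, while the brightest probe sets at the right bend below 0 and the dim ones at the left scatter widely.

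Socs3 had the largest difference among genes called. In its brightest probe set, 1455899_x_at, the signals with LPS alone were 693, 1119.8 and 841 in experiments 1, 2 and 3, and with IL-10 they were 4597, 4858 and 5930.4. Every IL-10 array was above every LPS array, as in 1.89% of the probe sets tested (in 2.98% every IL-10 array was below), and the pairs differed by 2.70, 2.10 and 2.80 on the log2 scale. The means were 884 ± 217 and 5128 ± 707 (SD, n = 3), and the fitted difference was 2.53 (SE 0.24, adjusted p = 0.000138), or 5.79-fold on the log2(signal + 16) scale.

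The other probe sets for Socs3 gave the same direction in each experiment. In 1456212_x_at the signals were 726, 1291 and 717 with LPS and 2967, 4414 and 5993 with IL-10, a difference of 2.27 (SE 0.23, adjusted p = 0.000180). In 1416576_at they were 539, 1551 and 720.0 with LPS and 2170.5, 3673 and 3248 with IL-10, a difference of 1.79 (SE 0.25, adjusted p = 0.00586). In all 3 probe sets the LPS signal was highest in experiment 2, and the pair difference of experiment 2 was the smallest, 1.76 and 1.24 in the latter pair of probe sets. The suffix _x_at marks probe sets with probes that can match other transcripts too, and 1416576_at has no such mark.

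Sbno2 rose as well. In 1439349_at the LPS arrays lay close together at 481, 494 and 437, and the IL-10 arrays were at 1222, 1196 and 1735. The groups did not overlap, with pair differences of 1.32, 1.25 and 1.95 and means of 471 ± 29.7 and 1384 ± 304 (SD, n = 3). The fitted difference was 1.51 (SE 0.17, adjusted p = 0.000490). Of the other 3 tested probe sets named Sbno2, 1443721_x_at went from 165, 436 and 258 to 541, 618 and 729, without overlap, and its difference of 1.19 missed the threshold (adjusted p = 0.372). The difference in 1458308_at was 0.74, also without overlap between groups (adjusted p = 0.515), and in 1441840_x_at it was 0.06, with experiment 2 going the other way. Sbno1, the paralogue of Sbno2, differed by -0.23 (SE 0.18, adjusted p = 0.767).

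Etv3 was called in 1 of 4 tested probe sets. In 1456358_at the signals were 653, 673 and 446 with LPS and 1535, 1363 and 1293 with IL-10, without overlap, with pair differences of 1.21, 1.00 and 1.50. The difference was 1.24 (SE 0.15, adjusted p = 0.00181). The brightest Etv3 probe set, 1418637_at, read 2110.4, 2084 and 1849.7 with LPS and 2254, 3138 and 1919.7 with IL-10, a difference of 0.24 (SE 0.11, adjusted p = 0.633). Values for 1418635_at were 1195, 1229.9 and 786 with LPS and 1118, 1108 and 775 with IL-10, a difference of -0.09 (SE 0.10, adjusted p = 0.844). The dimmest, 1418636_at, differed by 0.69, -1.16 and 1.42 in the 3 experiments. The probe sets of this gene therefore gave different readings at 20 min, and where each lies on the transcript was not analysed here.

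**Figure D2:**
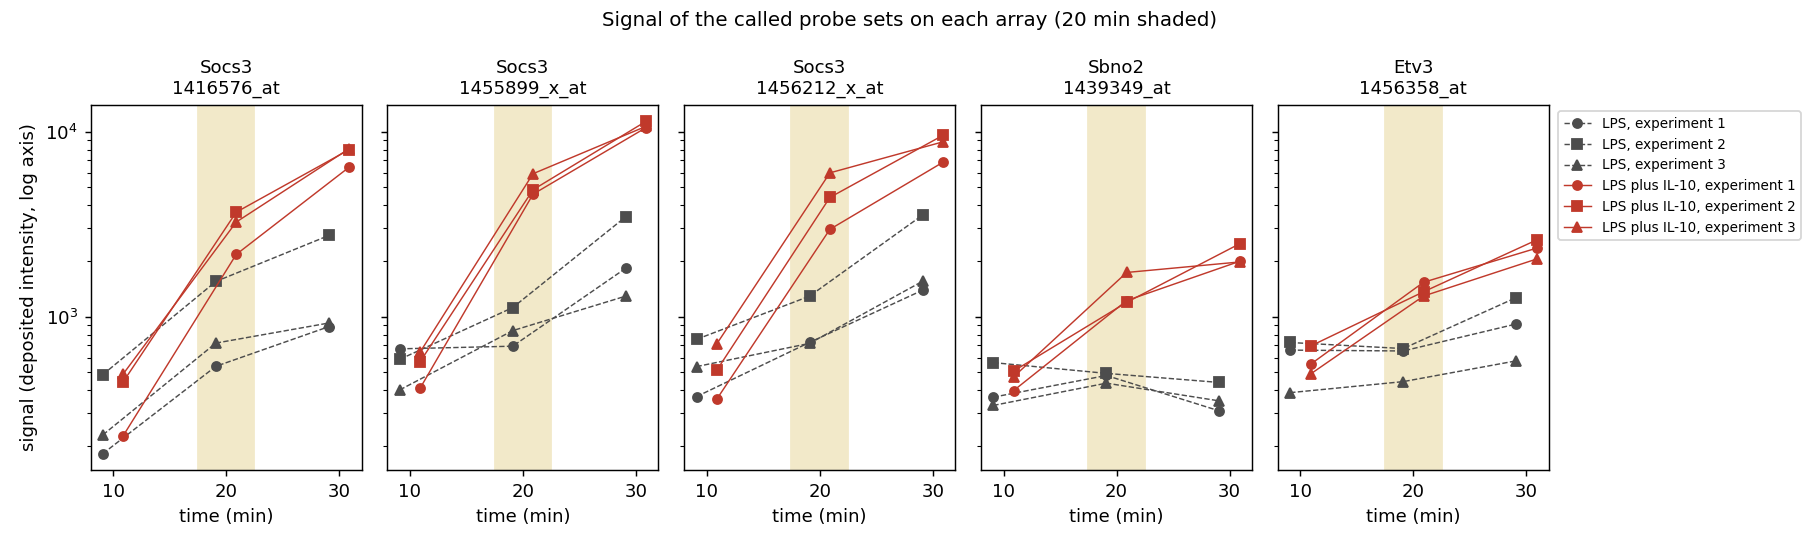
Signal on a log axis (y) at 10, 20 and 30 min (x) for the 5 called probe sets, with LPS in grey and LPS plus IL-10 in red and 1 symbol per experiment, so that each point is 1 array, moved slightly sideways for clarity. At 20 min, shaded, the 3 red points lie above the 3 grey points in every panel, and at 10 min they overlap.

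These calls depended in part on the block and on which experiments and arrays were kept. All 5 were called without experiment 2, without experiment 3, and with any 1 of the 20 min LPS arrays left out. Without the experiment as a block 2 of the 5 were called, Socs3 1455899_x_at (adjusted p = 0.00504) and Sbno2 1439349_at (adjusted p = 0.0393). Without experiment 1 none of the 5 was called, although their differences stayed between 1.25 and 2.45 (adjusted p between 0.0992 and 0.547), and the only probe set called then was 1 for Rusc2. Without the LPS array of experiment 1 or of experiment 2 the count was 11 or 8. Of the 5, only Socs3 1416576_at lost its call when 1 array was left out. This was the IL-10 array of experiment 1 (adjusted p = 0.0818) or of experiment 3 (adjusted p = 0.0573). The LPS arrays of experiments 2 and 3 had the highest low-end signals of all arrays, as described at the end. With both left out, which leaves 1 LPS array that is assumed to vary like the other groups, the differences were 1.31 for Sbno2 1439349_at (adjusted p = 0.0996), 1.15 for Etv3 1456358_at (adjusted p = 0.132) and 1.94 for Socs3 1416576_at (adjusted p = 0.0966), the other 2 Socs3 probe sets were still called, and 15 probe sets were called in all.

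The arrays at 10 and 30 min place the response in time. At 10 min no probe set was called (967 at an unadjusted p under 0.05, 3.57%), and the IL-10 effects in the 5 probe sets lay between -0.06 and 0.41. The effect at 20 min exceeded that at 10 min by 2.56 (SE 0.34) in Socs3 1455899_x_at and by 2.33 (SE 0.33) in Socs3 1456212_x_at, each with an adjusted p of 0.0176. These were the only 2 probe sets called in that contrast (0.00739% of those tested, with 6.36% at an unadjusted p under 0.05). The same difference of effects was 1.35 for Sbno2 1439349_at and 1.24 for Etv3 1456358_at, both with an adjusted p of 0.133. Both Socs3 calls were lost without the experiment as a block, without the intensity trend of the test, and without experiment 1 or experiment 2, each of which left 0 calls in that contrast, and without experiment 3 there were 11 calls.

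From 20 to 30 min no change of the IL-10 effect was called (1397 at an unadjusted p under 0.05, 5.16%), the smallest adjusted p being 0.249, for Etv3 1418635_at. The effect of IL-10 on Socs3 1455899_x_at was 2.42 at 30 min, -0.11 from its value at 20 min (95% interval -0.83 to 0.61). The Sbno2 1439349_at effect was 2.51 at 30 min, 1.00 above that at 20 min (95% interval 0.50 to 1.50, adjusted p = 0.898). With LPS alone the Socs3 1455899_x_at signal was also higher at 30 min, 2196 ± 1134 against 884 ± 217 at 20 min (SD, n = 3), whereas Sbno2 1439349_at was at 367 ± 67.3 against 471 ± 29.7.

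At 30 min 12 probe sets of 7 genes were called higher with IL-10 (0.0443%, with 2.82% at an unadjusted p under 0.05), including all 5 of 20 min. At 20 min 11 of the 12 were higher in all 3 pairs, beside 12.5% of all probe sets tested. The 11 include the 5 called at 20 min, whose agreement follows from that call, and further probe sets of Sbno2. The exception was Etv3 1418635_at, which was called at 30 min with an effect of 0.76. Gadd45g, a stress-response gene induced by STAT3, read 1382, 672 and 371 with LPS and 1805, 933 and 955 with IL-10 at 20 min, a difference of 0.72 (adjusted p = 0.578) beside 1.70 at 30 min (adjusted p = 0.00261), while the difference between these effects was not called (adjusted p = 0.914). Mt1, a metallothionein, differed by 1.04 in 1451612_at, from 174, 90.8 and 70.8 to 243, 205 and 249 without overlap (adjusted p = 0.556), while its brightest probe set 1422557_s_at differed by 0.01. Irf1, an interferon-response transcription factor, differed by 0.35 at 20 min and 1.03 at 30 min, where it was called (adjusted p = 0.00802).

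The Il10 transcript is one to check first in cells from IL-10-/- mice. Its probe set 1450330_at read 602, 861 and 1305 with LPS and 899, 1145 and 1895 with IL-10 at 20 min. The sources used here do not give the disrupted part of the gene, and a probe outside that part checks nothing. The pair differences were 0.57, 0.40 and 0.53, the fitted difference 0.50 (SE 0.16, adjusted p = 0.578), and at 30 min 0.98 (adjusted p = 0.0233).

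**Figure D3:**
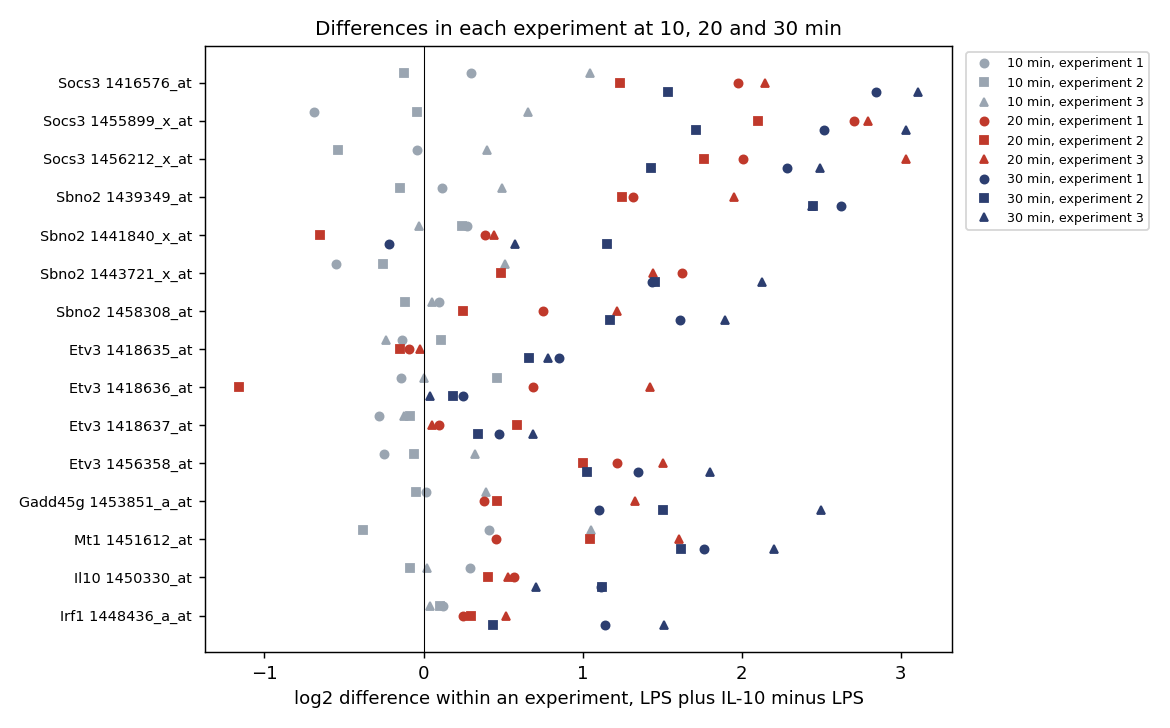
Log2 difference within an experiment, LPS plus IL-10 minus LPS (x), for the probe sets called at 30 min and the other tested probe sets of Sbno2 and Etv3 (y), with 10 min in grey, 20 min in red and 30 min in blue and 1 symbol per experiment. The red points of the 5 probe sets called at 20 min lie at 1.00 or above, and those of Gadd45g, Mt1, Il10 and Irf1 all lie above 0.

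No member of the IL-10 receptor and JAK-STAT list was called (0 of 20 tested). Il10ra, the ligand-binding chain, read 252, 544 and 440.4 with LPS and 375, 697 and 569.5 with IL-10, higher in each pair, by 0.42 (SE 0.18, adjusted p = 0.623). Il10rb, the shared second chain, differed by 0.06, Jak1 by -0.04 and Tyk2 by -0.01, with 95% intervals of -0.17 to 0.30 (Il10rb), -0.24 to 0.16 (Jak1) and -0.22 to 0.21 (Tyk2). Stat3 itself went from 2133, 3262 and 1389 to 2513, 2225 and 2044, up in experiments 1 and 3 and down in experiment 2, for a difference of 0.08 (SE 0.19). The list's median difference was 0.07, with 13 of 20 higher, against 0.00 over the 12509 genes tested, of which 6297 were higher. Without the raised LPS arrays of experiments 2 and 3 it turned to -0.03, with 8 of 20 higher.

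Among the 33 tested IL-10 and STAT3 induced genes, a list that includes the genes the study chose, 2 were called higher (Socs3 and Sbno2), and Etv3 only through a probe set that is not its brightest. The share of genes called through their brightest probe set was 2 of 12509. In this list 12 genes were higher and 3 lower in all 3 pairs, 36.4% and 9.09%, beside 13.7% and 15.2% of all genes. Its median difference was 0.01 with 19 of 33 higher, and 0.06 after quantile normalisation. Zfp36, which encodes the mRNA-destabilising protein tristetraprolin, read 4510.2, 5463 and 2618 with LPS and 6103, 8027 and 3983 with IL-10. The groups overlapped, since experiment 3 read lowest under both treatments. Its pair differences were 0.44, 0.55 and 0.60, and the fitted difference of 0.53 (SE 0.13) did not pass (adjusted p = 0.515).

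Other well known STAT3 and IL-10 targets did not pass the test at 20 min. Bcl3, an atypical IkB protein, differed by 0.08 (95% interval -0.18 to 0.34), Nfil3, a bZIP repressor, by -0.02 (-0.53 to 0.49), Pim1, a serine/threonine kinase, by -0.03 (-0.37 to 0.30) and Il4ra, a cytokine receptor chain, by -0.02 (-0.31 to 0.27). Cish, another member of the SOCS family, differed by -0.08 (-0.71 to 0.56) and Mt2 by 0.01 (-0.19 to 0.22). The intervals are 95% intervals of the log2 difference, and for Cish and Nfil3 they include a difference of 0.49 or more. Socs1 was not tested because its signal stayed under the filter.

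None of the 18 tested inflammatory cytokine and chemokine genes was called, and 11 of 18 were higher. Tnf, which encodes the cytokine TNF, read 4493, 3484 and 411 with LPS and 3705, 2256 and 517 with IL-10. The experiments differed from each other far more than the treatments, and the difference was -0.19 (SE 0.23, adjusted p = 0.849). The neutrophil-attracting chemokine gene Cxcl1 read 917, 2195 and 965 with LPS and 693, 1367 and 454 with IL-10, lower in each pair by 0.40, 0.68 and 1.06 in size, for a difference of -0.71 (SE 0.27, adjusted p = 0.611). Its relative Cxcl2 went from 10797, 12138 and 11086 to 9113, 9409.6 and 6646, all IL-10 arrays below all LPS arrays, for a difference of -0.45 (SE 0.19, adjusted p = 0.621), and -0.38 after quantile normalisation. Of all genes 2.53% had their IL-10 arrays all below the LPS arrays.

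Other chemokine and cytokine genes did not go one way. Ccl4 differed by -0.25, 1.02 and 0.49 in the 3 experiments, and Ccl3, which attracts monocytes, by 0.02, 0.25 and 0.28. Il1b, which encodes interleukin 1 beta, differed by -0.49 (SE 0.31), with -0.94 and -0.59 in experiments 1 and 2 and 0.05 in experiment 3. The prostaglandin synthase gene Ptgs2 differed by -0.06 (SE 0.34). The median of the list was 0.10, and -0.08, -0.07 and 0.30 in experiments 1, 2 and 3, and it was -0.10 with the LPS arrays of experiments 2 and 3 both left out.

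Neither the signalling chain from TLR4 to NF-kB (0 of 21 called, median 0.03, turning to -0.01 after quantile normalisation) nor the NF-kB feedback genes (0 of 17, median 0.05) held a call. Without the raised LPS arrays of experiments 2 and 3 both medians turned, to -0.04 with 8 of 21 higher and to -0.04 with 8 of 17 higher. Traf1, a signalling adaptor induced by NF-kB, differed by -0.72 (SE 0.26, adjusted p = 0.602), with -0.06 in experiment 1 and -1.10 and -1.01 in experiments 2 and 3. Relb, an NF-kB subunit gene, differed by 0.31, with the same sign in all 3 pairs. Rel, another, differed by -0.40, with -0.36, -0.81 and -0.02 in experiments 1, 2 and 3. The last of these turned to 0.06 after quantile normalisation. Tnfaip3, which encodes the ubiquitin-editing inhibitor A20, differed by -0.05 (95% interval -0.33 to 0.22), and Nfkbiz, an atypical IkB gene, by 0.05 (-0.26 to 0.37).

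The immediate early regulators (0 of 35 called, 20 higher, median 0.02) and the feedback genes of MAPK signalling and mRNA decay (0 of 21, 10 higher, median -0.01) spread to both sides. Both medians changed sign without those 2 LPS arrays, to -0.05 with 14 of 35 higher and to 0.10 with 14 of 21 higher. Ier3, an immediate early gene linked to cell survival, read 4204, 5477 and 4019.7 with LPS and 6585, 6210.2 and 6474 with IL-10. The groups did not overlap and the difference was 0.50 (SE 0.17, adjusted p = 0.591), and all IL-10 arrays were above all LPS arrays in 2% of genes. Spry1, an inhibitor of receptor tyrosine kinase signalling, read 84.1, 259 and 174 with LPS and 37.1, 82.8 and 35.2 with IL-10. The groups did not overlap, and the difference was -1.43 (SE 0.43, adjusted p = 0.557), with -0.91 in experiment 1 and -1.48 and -1.89 in experiments 2 and 3, whose LPS arrays were raised at low signals. Dusp5, an ERK phosphatase gene, read 284, 209 and 191 with LPS and 155, 164 and 74.1 with IL-10, a difference of -0.78 (SE 0.25, adjusted p = 0.578). Egr1, a zinc finger transcription factor, differed by 0.13, -0.94 and -1.20 in the 3 experiments, Fos, an AP-1 subunit gene, by -0.11, -0.12 and -0.74, and Junb by -0.21, -0.26 and 0.49.

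The ETS-family list of 18 genes contained Sbno2 and Etv3, which the study chose, so it is not independent evidence. Sbno2 was its 1 call and 13 of 18 were higher, with a median of 0.09 (0.09 after quantile normalisation also). Elf1, an ETS activator, differed by 0.19 with all IL-10 arrays above all LPS arrays, as in 2% of genes. Its pair difference in experiment 2 turned to -0.07 after quantile normalisation. The IL-10 effects on Elf1 at 10 and 30 min were -0.22 and -0.08. Ets2 differed by -0.17 at 20 min. The interferon response list (0 of 26) had 16 higher and a median of 0.08, but -0.11 in experiment 1, and -0.10 with 8 of 26 higher without those 2 LPS arrays. Ifnb1, the interferon beta gene, read 81.2, 371 and 82.7 with LPS and 55.5, 110 and 58.6 with IL-10. Its difference was -0.82 (SE 0.40, adjusted p = 0.638), with -0.44, -1.62 and -0.40 in experiments 1, 2 and 3. The LPS array of experiment 2 was raised at low signals. The heat shock and unfolded protein list had 4 of 17 higher and a median of -0.10, or -0.07 after quantile normalisation, and the cell cycle list 11 of 24 and -0.01.

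**Figure D4:**
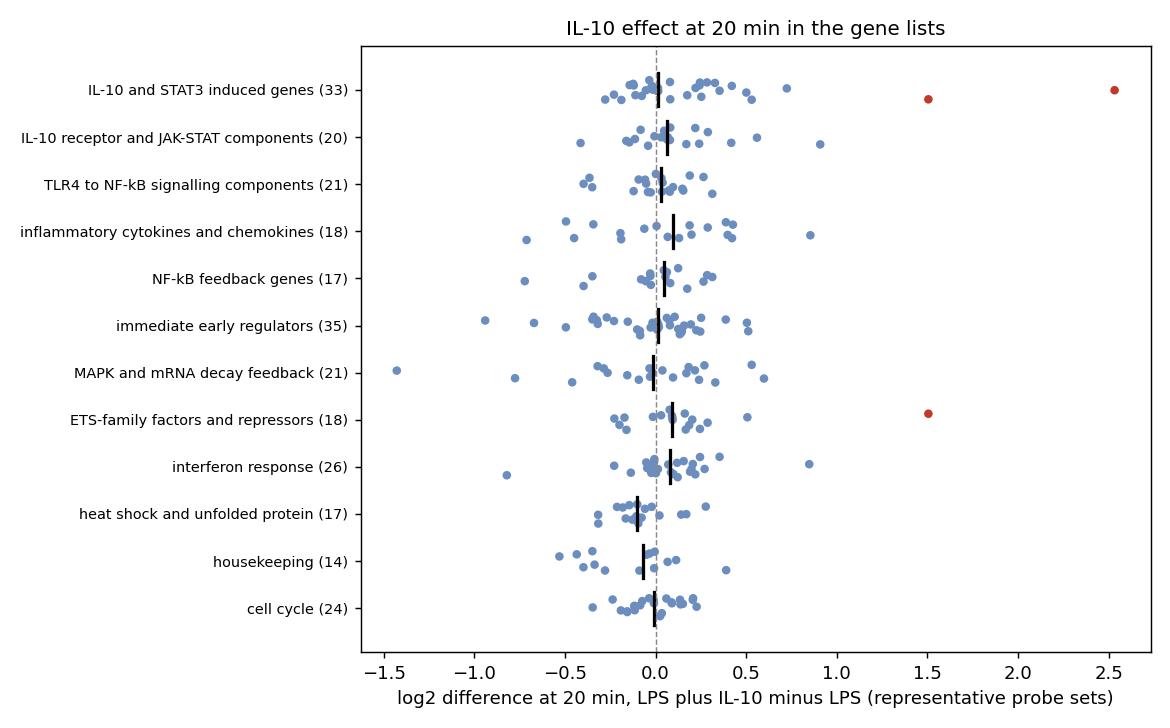
Log2 difference at 20 min, LPS plus IL-10 minus LPS (x), of each tested gene in 12 pathway lists (y, number of genes in brackets), 1 point per gene through its brightest probe set. Red points passed the test, black bars are list medians and the dashed line is the median of all 12509 genes, and the only red points are Socs3 and Sbno2, Sbno2 appearing in 2 lists.

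The cells had the markers of macrophages. All 12 macrophage markers with a probe set were above the array median on all 6 arrays, against 0 of 10 for B and T lymphocytes, 0 of 6 for erythroid cells, 1 of 7 for dendritic cells, 5 of 10 for stromal cells and 8 of 10 for granulocytes. The summed granulocyte marker signal was 7805 to 12340 (LPS) and 7478 to 12300 (LPS plus IL-10), and the stromal sum 5100 to 9231 and 4836 to 9274, so both sums overlapped between groups. The summed macrophage marker signal did not overlap, 190400 to 230300 with LPS and 164600 to 179200 with IL-10. In such bulk RNA fewer cells of a type and less RNA per cell cannot be told apart, and the scaling of each array to a trimmed mean of 500 hides a change in total RNA.

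That lower macrophage sum moved with a shift of the brightest probe sets as a whole. Among the 661 probe sets with a mean signal of 10000 or more, the median difference was -0.13, -0.10 and -0.38 in experiments 1, 2 and 3, and 86.7%, 72% and 90% of them were lower with IL-10. At 10 min the same medians were 0.16, 0.16 and -0.24, and at 30 min 0.15, 0.01 and 0.11. Quantile normalisation gives all arrays the same distribution, so it removes such a shift whatever its cause. After it the medians at 20 min were 0.00, -0.02 and 0.02, which tells nothing about the cause. Of the macrophage markers 7 of 12 and of the housekeeping genes 8 of 14 have such signals.

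Single bright genes were lower too. Actb, the cytoplasmic actin gene, differed by -0.53 (-0.11 after quantile normalisation), Lyz2, the macrophage lysozyme gene, by -0.50 (-0.10), B2m, the MHC class I light chain gene, by -0.44 (-0.05) and Rplp0, a ribosomal protein gene, by -0.40 (-0.06). Cd14, the LPS co-receptor gene, differed by -0.36 (-0.11) and Nfkbia, which encodes the NF-kB inhibitor IkB alpha, by -0.35 (-0.09), the latter from 28355, 24004 and 30887 to 23873, 18858 and 22601 without overlap. The housekeeping list had 3 of 14 higher and a median of -0.07, which turned to 9 of 14 and 0.03 after quantile normalisation, and the macrophage markers had 4 of 12 higher and a median of -0.12, which became 6 of 12 and 0.00. None of these genes was called, and the 5 called probe sets kept their calls after quantile normalisation, with differences of 1.23 to 2.49.

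At the other end of the scale the LPS arrays of experiments 2 and 3 had lower quartiles of 38.7 and 34.1, above the 21.9 to 31.1 of the other 16 arrays, and the lowest median rank correlations with the other arrays. All probe sets but the controls were split by mean signal into 4 bands of equal number. The median difference in experiments 1, 2 and 3 was -0.05, -0.46 and -0.21 in band 1, the dimmest, and -0.08, -0.42 and -0.16 in band 2. It was 0.02, -0.19 and -0.03 in band 3 and -0.01, 0.04 and 0.03 in band 4, the brightest. In bands 1 and 2 the medians were thus lower in experiments 2 and 3, those of these arrays, than in experiment 1. Single genes below band 4 did not all follow that order. Spry1 did, and Dusp5 did not, with -0.81, -0.32 and -1.20 in experiments 1, 2 and 3. The part of these 2 arrays in the lower signal of a dim gene was not tested. The called probe sets all lay in band 4, above a mean signal of 428, and each was higher in experiment 1. The LPS array of experiment 1 had a lower quartile of 23.1, inside the range of those 16 arrays. Its median rank correlation of 0.8891 was near their lowest, 0.8885, and its pair shared the shift of the brightest probe sets.

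**Figure D5:**
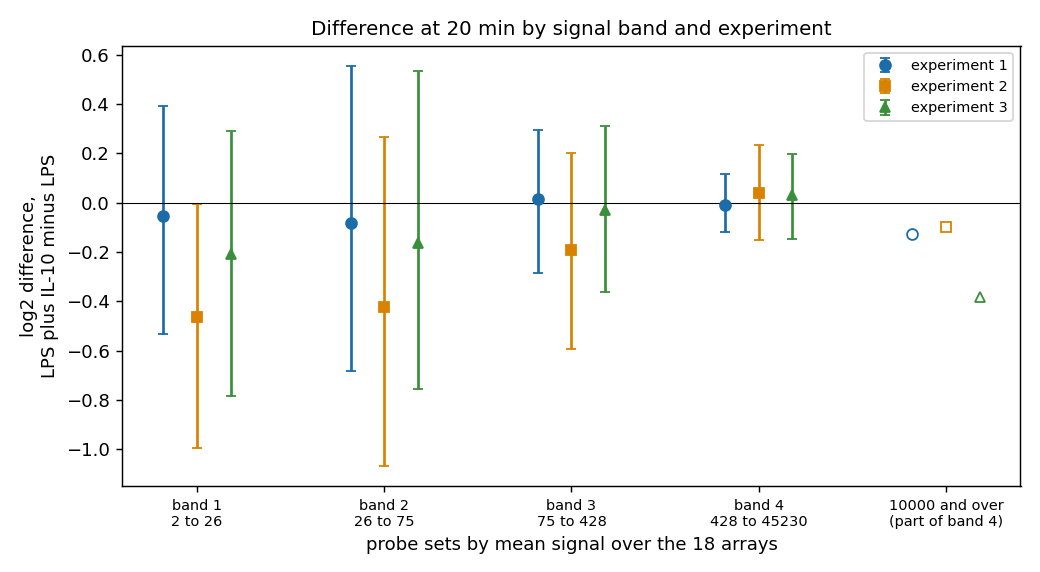
Median log2 difference at 20 min, LPS plus IL-10 minus LPS (y), with bars for the quartiles, in 4 bands of the probe sets by mean signal (x) and, as open symbols without bars, in the 661 probe sets of 10000 or more, 1 colour and symbol per experiment. Band 4 stays between -0.01 and 0.04, bands 1 and 2 of experiment 2 reach -0.46 and -0.42, and the open symbols lie below 0 in all 3 experiments.

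The largest differences among bright genes apart from the called ones belonged to no single list. Rps10, a ribosomal protein gene, read 5447, 7177 and 9402 with LPS and 12717, 18456 and 15048 with IL-10 in 1439374_x_at, without overlap, a difference of 1.09 (SE 0.27, adjusted p = 0.515), and it was called when the 6 arrays were fitted alone. Srsf3, a splicing factor gene, read 2163, 2335 and 2062 with LPS and 4353, 4048 and 3099 with IL-10 in 1434512_x_at, also without overlap, a difference of 0.79 (SE 0.16, adjusted p = 0.434). Both are _x_at probe sets, and neither is the brightest of its gene. For Rps10 the means at 10, 20 and 30 min were 11430, 7342 and 12680 with LPS and 6311, 15410 and 11010 with IL-10. For Srsf3 they were 4080, 2186 and 4364 with LPS and 3406, 3833 and 3865 with IL-10. In both the LPS mean was lowest at 20 min, and the IL-10 effects at 10 and 30 min were negative. The Malat1 and Metrnl probe sets below are also not the brightest of their genes. On the lower side Malat1, a nuclear long non-coding RNA, differed by -0.36, -2.94 and -0.67. Experiment 2 thus made most of its difference of -1.32 (SE 0.60, adjusted p = 0.631). Metrnl, which encodes a secreted protein, differed by -0.75 with all IL-10 arrays below all LPS arrays (adjusted p = 0.556). At 10 and 30 min the IL-10 effects were 0.08 and 0.15 for Malat1 and 0.07 and -0.74 for Metrnl, none of them called.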

How the data were processed

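Total RNA was hybridised to 18 one-colour Affymetrix arrays with 45101 probe sets, 64 of them controls. The deposited values are linear intensities from GCOS 1.4 (per the submitters' processing notes), and their mean after trimming 2 percent at each end was 500 on every array. The sources used here do not name the signal algorithm, detection calls were not used, and the number of arrays limits the precision. Names came from the platform annotation, in which 34958 probe sets have 1 symbol, 932 several and 9211 none, and the last 2 kinds stayed unnamed.

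From the deposited intensities log2(signal + 16) was computed, which understates fold changes of dim probe sets. Probe sets at or above the array median on at least 3 arrays were tested, 27062 in all, and 12509 genes had a representative, the probe set with the highest mean. All 18 arrays were fitted in limma 3.58.1 under R 4.3.3 (lmFit, then eBayes with its trend option) with a coefficient per group and the experiment as a block, at 10 residual degrees of freedom. All tests were two-sided, p-values were adjusted by Benjamini-Hochberg with a threshold of 0.05, and the fit was tested on simulated data. Comparisons were IL-10 at 20 min, and the difference of its effect from those at 10 and 30 min. The effects at 10 and 30 min come from other arrays, but both difference tests also contain the 20 min arrays. They are therefore not independent of the test at 20 min.

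The labels make each replicate number an independent experiment. Deviations from group means correlated at 0.20 to 0.64 in the 45 pairs of arrays of the same experiment and different groups. In the 90 pairs that differed in both, the range was -0.47 to 0.07. Deviations within a group cancel out, so positive values within experiments force lower ones between them. All same-experiment correlations were positive, with 0.57, 0.34 and 0.55 in the 20 min pairs, and the numbers were used to pair the samples.

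The comparison, the gene lists (344 genes in 18 lists, 288 of them tested) and the panel of 38 genes were chosen with earlier results of these data known. Named genes were those called, with their other probe sets, the panel, up to 10 bright genes per direction with the largest difference of one sign in all 3 pairs, and up to 4 such members per list. Values for Mt1 1451612_at and for the promoters were added after seeing the data. Alternatives were no block, no trend, quantile normalisation, pseudocounts of 1 and 64, no filter, bright probe sets alone, the 6 arrays alone, and leaving out arrays or experiments.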

Additional observations from a re-analysis of the deposited data

Results flagged for a closer look

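The IL-10 effect on Socs3 differed between 10 and 20 min by a test of the difference itself (limma). It was larger at 20 min by 2.56 in 1455899_x_at and by 2.33 in 1456212_x_at, on the log2 scale, with larger values at 20 min in 3 of 3 experiments in both probe sets. The adjusted p was 0.0176 for each. Neither was called without the replicate block, without the intensity trend, or without experiment 1 or experiment 2, each of which left 0 calls in that contrast. Groups of 3 arrays were too small for the check of single outlying samples.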

How the results depend on the processing

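The count of 5 calls at 20 min was also 5 after quantile normalisation, with pseudocounts of 1 and 64, without the filter and among bright probe sets alone, and it was 6 in the 6 arrays fitted alone with the replicate block. Without the replicate block it was 2, and 0 for the 20 minus 10 min difference of effects, where 2 were called with it. Without the intensity trend these counts were 3 and 0. Without both raised LPS arrays the count at 20 min was 15, of which 2 were shared with the 5. Leaving out 1 experiment or array gave 1 to 11 calls at 20 min and 0 to 11 for the 20 minus 10 min difference, and without the IL-10 array of experiment 3, 1 of the 5 calls was lower, an unnamed probe set. The 30 minus 20 min difference had 0 calls in every setting run. The differences of the 5 called probe sets kept their sign in all 18 settings, between 1.10 and 2.77, and the largest number of settings in which one was called was 17, for Socs3 1455899_x_at, and the smallest 12, for Socs3 1416576_at. The cause of these changes was not tested. The median of all probe sets tested was -0.01 and moved by less than 0.1. The median standard error was 0.22 over all probe sets tested and 0.14 over bright ones, which limits the size of difference that can be told from 0, and 3 arrays per group measure the spread of these experiments alone.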
